A study of Rattus norvegicus with 4 samples.

Results

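The NF-kB pathway and its acute-phase targets were followed in cultured rat cortical neurons through 10 genes listed by name. They were the subunit genes Nfkb1, Nfkb2, Rela and Relb, the regulators Nfkbia, Nfkbiz and Tnfaip3, and the targets Icam1, Vcam1 and Lcn2. Their probes were the gene probes whose name in the scanner files was the symbol itself. By that rule 9 of the 10 genes had a probe, and 4 of the 9 had 2, which gave 13 probes among the 41012 gene probes of the array. In all, 16980 genes on the array carried a RefSeq symbol. Relb had no probe by its symbol; a probe that the files describe as Relb under a transcript identifier is given separately below. The neurons were primary cultures from cortices of Sprague Dawley embryos of both genders at stage E18.5. All cultures were infected with a lentivirus at day 2 in vitro and lysed at day 7. The virus carried a control shRNA in the 2 shCTL arrays and an shRNA against Cmtr1, a cap methyltransferase gene, in the 2 shCM1 arrays. Uninfected cultures were not analysed here, so infection is common to both groups. The titles write the same groups with the prefix si, and the series' text speaks of 2 independent experiments without saying which array came from which.

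Lcn2 and Icam1, a secreted acute-phase protein and an adhesion molecule of the classical NF-kB programme, were lower after Cmtr1 knockdown, and both fell in the fit with the slide as a block. Lcn2 stood at 38.8% of control and Icam1 at 71.7%. The fit without a block called no probe of the whole array, these included. With the block, neither call held under every setting tried, as given below. Vcam1 stood at 86.3% of control, lower within both slides, and was not called. None of the genes for NF-kB subunits, IkB proteins or A20 was called in either direction, and 2 of them, Nfkbia and Nfkb1, had differences of 0.02 to 0.03 on the log2 scale. Of 20 other acute-phase genes, 13 were higher within both slides and 2 lower. Of 20 other classical targets, 12 were higher and 4 lower. The list medians were 0.39 and 0.24, beside 0.08 over all probes. After quantile scaling they were 0.24 and 0.03, beside 0.01 over all probes. All probes leaned upward on the main scaling, where groups without overlap were higher in shCM1 at 7987 and lower at 3677. The share of all probes higher within both slides is not given here, so these counts are a description only. The members and the other lists were chosen with earlier results of these data known.

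NF-kB is a family of dimeric transcription factors built from the products of Rela, Rel, Relb, Nfkb1 and Nfkb2. In resting cells IkB proteins hold the dimers in the cytoplasm; kinases of the IKK complex mark IkB for degradation, and the freed dimers bind kB sites and switch on cytokines, chemokines, adhesion molecules and acute-phase genes. Several of the induced genes, such as Nfkbia and Tnfaip3, encode inhibitors that switch the response off again. In brain, the response is best known from glia and vascular cells, and Lcn2 and Vcam1 are widely used as marks of reactive astrocytes and activated endothelium.

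The arrays were single-colour Agilent rat arrays. Level below means the log2 signal of a probe minus the 75th percentile of its array, and difference means the shCM1 level minus the shCTL level. That percentile lay between 596.3 and 754.5 signal units, and 84.0% to 90.4% of gene probes were well above background. Replicate 1 of both groups lay on slide 1 and replicate 2 of both on slide 2, so the replicate number, the slide and its scan are the same split. In a principal component analysis, slides separated along the leading axis (65.1% of the variance) and groups along the next (25.1%). Cmtr1 itself had a level of -1.43 and -1.86 in shCTL replicates 1 and 2, and of -3.46 and -3.53 in shCM1 replicates 1 and 2. It stood at 27.7% of control. Among markers of the labelled cell type, all 8 neuronal genes were well above background on all 4 arrays, and so were all 8 astrocyte genes.

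Across all 36700 probes tested, limma without a block called 0 probes (0% of those tested) after Benjamini-Hochberg adjustment, and 1110 had an unadjusted p under 0.05. With the slide as a block, limma called 2164, which is 5.90% of those tested; 2.69% of those tested were called lower and 3.20% higher. Of the 13 member probes, 2 were called in the blocked fit, both lower. All 13 were well above background on all 4 arrays, so no member was lost to the filter. Because its variance prior carries 14.8 degrees of freedom, the blocked fit takes most of its error from probes of similar brightness. Without an intensity trend in that prior, no probe was called with the block, and 6290 had an unadjusted p under 0.05.

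The probes on which the results turn are shown by their first 30 of 60 bases, 5′ to 3′ as the files give them, in lower case because no part of them is singled out. The Lcn2 and Icam1 probes gave the called differences and the Vcam1 probe the next largest drop. The Rela probes are shown because they gave unlike differences. Positions are in the rn4 build, which the file headers name. The Lcn2 probe lay at chr3:11511592-11511651 on the minus strand, the Icam1 probe at chr8:20051730-20051789 on the plus strand, the Vcam1 probe at chr2:212277695-212277754 on the minus strand, and the Rela probes at chr1:208263526-208263582 and chr1:208272349-208272408 on the plus strand. The exon and untranslated parts of that build's gene models were not used here.
Lcn2 probe: caatgcattgacaactgaacagacggtgag
Icam1 probe: aatatggacgctcacctttagcagctcaac
Vcam1 probe: acggggacgtgtttcttcatcaggatcttg
Rela upstream probe: ccgctctgcaggcagtattcctggggagag
Rela downstream probe: caggggatgaagacttctcctccattgcgg

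The 250 bases before the RefSeq start site were read from a promoter table of the GRCr8 build for all 9 genes with probes. The NF-kB consensus site, a motif of 10 bases, was the only motif searched, on both strands. It was found in 6 of the 9 (66.7%), against 2117 of all 33469 promoters in the table (6.33%) and 19 of 92 promoters of the other pathway genes (20.7%). The sequences below, on the strand of the gene, belong to the called targets Lcn2 and Icam1 and to 3 genes that were not called: Vcam1, Nfkbia and Tnfaip3. Capitals mark the matches. Their places are chr3:36081781-36082030 (minus strand) for Lcn2, chr8:27829595-27829844 (plus) for Icam1, chr2:206742784-206743033 (minus) for Vcam1, chr6:78597073-78597322 (minus) for Nfkbia and chr1:15543980-15544229 (minus) for Tnfaip3.
Lcn2 upstream: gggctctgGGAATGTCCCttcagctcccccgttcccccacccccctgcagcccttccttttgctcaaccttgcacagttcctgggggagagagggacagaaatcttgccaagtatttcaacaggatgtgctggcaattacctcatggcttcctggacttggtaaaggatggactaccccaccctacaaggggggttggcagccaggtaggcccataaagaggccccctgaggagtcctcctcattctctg
Icam1 upstream: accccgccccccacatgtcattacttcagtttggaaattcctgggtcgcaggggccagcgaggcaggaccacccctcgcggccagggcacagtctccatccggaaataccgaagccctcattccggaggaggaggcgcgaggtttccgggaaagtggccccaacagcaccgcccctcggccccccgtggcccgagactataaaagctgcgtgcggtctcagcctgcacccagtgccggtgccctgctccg
Vcam1 upstream: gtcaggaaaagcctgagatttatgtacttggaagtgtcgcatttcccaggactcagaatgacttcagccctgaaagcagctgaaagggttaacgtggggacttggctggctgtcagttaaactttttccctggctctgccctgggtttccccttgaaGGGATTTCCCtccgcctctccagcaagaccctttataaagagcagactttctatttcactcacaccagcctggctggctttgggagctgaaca
Nfkbia upstream: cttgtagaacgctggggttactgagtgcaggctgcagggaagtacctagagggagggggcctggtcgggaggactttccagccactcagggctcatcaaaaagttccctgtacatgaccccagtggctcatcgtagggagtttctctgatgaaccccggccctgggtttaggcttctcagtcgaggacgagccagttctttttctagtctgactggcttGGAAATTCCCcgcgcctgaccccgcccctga
Tnfaip3 upstream: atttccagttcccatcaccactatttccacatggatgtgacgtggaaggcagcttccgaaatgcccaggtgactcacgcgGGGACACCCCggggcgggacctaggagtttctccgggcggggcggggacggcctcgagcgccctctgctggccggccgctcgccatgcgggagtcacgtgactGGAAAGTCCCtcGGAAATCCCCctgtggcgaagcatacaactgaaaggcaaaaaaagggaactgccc
The Lcn2 match GGAATGTCCC lay 242 to 233 bases before the start and the Nfkbia match GGAAATTCCC 31 to 22 bases before it. The Vcam1 match GGGATTTCCC lay 93 to 84 bases before the start, and Tnfaip3, the gene of A20, held 3 matches, at 170 to 161, 67 to 58 and 55 to 46 bases. Nfkb2 held GGGACTTTCC at 20 to 11 bases and Nfkbiz GGGAATTTCC at 13 to 4 bases. No exact match was found in this window for Icam1, Nfkb1 or Rela. Only exact matches were counted, and the Icam1 window holds ggaaattcct, which misses the motif only at its last base. The lack of an exact match therefore does not show that the Icam1 promoter has no kB site. Exact matches did not separate the called from the uncalled genes. Lcn2 held a match and Icam1 did not, and 5 genes with a match were not called. A match describes the sequence only.

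The subunit genes came first in the comparison. Nfkb1 encodes p105, which is processed to the p50 subunit, and its 2 probes lay at bases 3205 and 3789 of the transcript. The upstream probe had levels of -1.27 and -1.20 in shCTL replicates 1 and 2, and of -1.31 and -1.11 in shCM1 replicates 1 and 2. The downstream probe had -0.86 and -0.50 in shCTL and -0.81 and -0.49 in shCM1, in the same order. At both probes the groups overlapped, and at the downstream probe the arrays of slide 2 were the high ones in both groups. The difference was 0.03 at both probes, with a 95% interval of the blocked limma fit from -0.20 to 0.26 at the downstream one. At the upstream probe the sign of the difference turned under other scalings, to -0.04 at the lowest. At the downstream probe the difference was -0.00165 at the lowest, after quantile scaling, and 0.03 after normexp.

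The downstream Nfkb1 probe was printed in 10 spots on each array, which shows the error within an array. The SD of its spots ranged from 0.045 to 0.066 on the log2 scale. The slides differed by 0.34 at this probe, so the gap between slides was larger than the spread of spots, while the gap between groups was smaller than that spread.

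Nfkb2 encodes p100, the precursor of p52 in the non-canonical branch. Its probe at base 643 had levels of -3.89 and -4.38 in shCTL replicates 1 and 2, and of -3.81 and -3.98 in shCM1 replicates 1 and 2. Its probe at base 2445 had -0.85 and -1.22 in shCTL and -0.77 and -1.16 in shCM1. Both probes aligned to the genome in more than 1 piece, over 325 and 193 bases. At both, slide 1 was the higher slide in each group, and the groups overlapped. The differences were 0.24 (SE 0.19 in the blocked fit) and 0.07 (SE 0.11), with adjusted p of 0.483 and 0.747 in the blocked limma fit. The upstream difference depended on the scaling: it was 0.15 after normexp, 0.05 after quantile scaling, 0.04 in the authors' table and 0.03 after cyclic loess. The downstream one lay between 0.01 and 0.03 under the same 4 settings, and leaving out 1 array turned the sign of both.

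Rela encodes p65, the subunit with the main activation domain. Its probe at base 180 had levels of -5.05 and -4.87 in shCTL replicates 1 and 2, and of -4.58 and -4.53 in shCM1 replicates 1 and 2, signals of 19.8 to 32.2 units. The shCM1 arrays were the higher ones there and the groups did not overlap. Its probe at base 1643 had 0.45 and 0.31 in shCTL and 0.26 and 0.61 in shCM1, where the groups overlapped and the slides went opposite ways, by -0.19 and 0.30. The differences were 0.40 (SE 0.23) and 0.05 (SE 0.12), with blocked limma adjusted p of 0.314 and 0.821. The upstream difference was smaller under every other scaling, at 0.15 after normexp, 0.16 after cyclic loess, and 0.18 after quantile scaling and in the authors' table. The signal at the upstream probe was low, with a software error estimate of 10.9% to 14.0% per spot, above that of the downstream probe, and it was measured in 1 spot per array.

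Relb, the partner of p52, was read only through the probe described as Relb, with levels of -4.05 and -3.62 in shCTL replicates 1 and 2, and of -3.98 and -3.87 in shCM1 replicates 1 and 2. Rel, the c-Rel subunit, was read in the same way, with -4.32 and -4.49 in shCTL and -4.47 and -4.03 in shCM1. Both overlapped between groups and went opposite ways in the slides, from -0.26 to 0.08 for Relb and from -0.15 to 0.45 for Rel. The differences were -0.09 (SE 0.18) and 0.15 (SE 0.21), and neither was called (blocked limma adjusted p of 0.808 and 0.718).

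**Figure D1:**
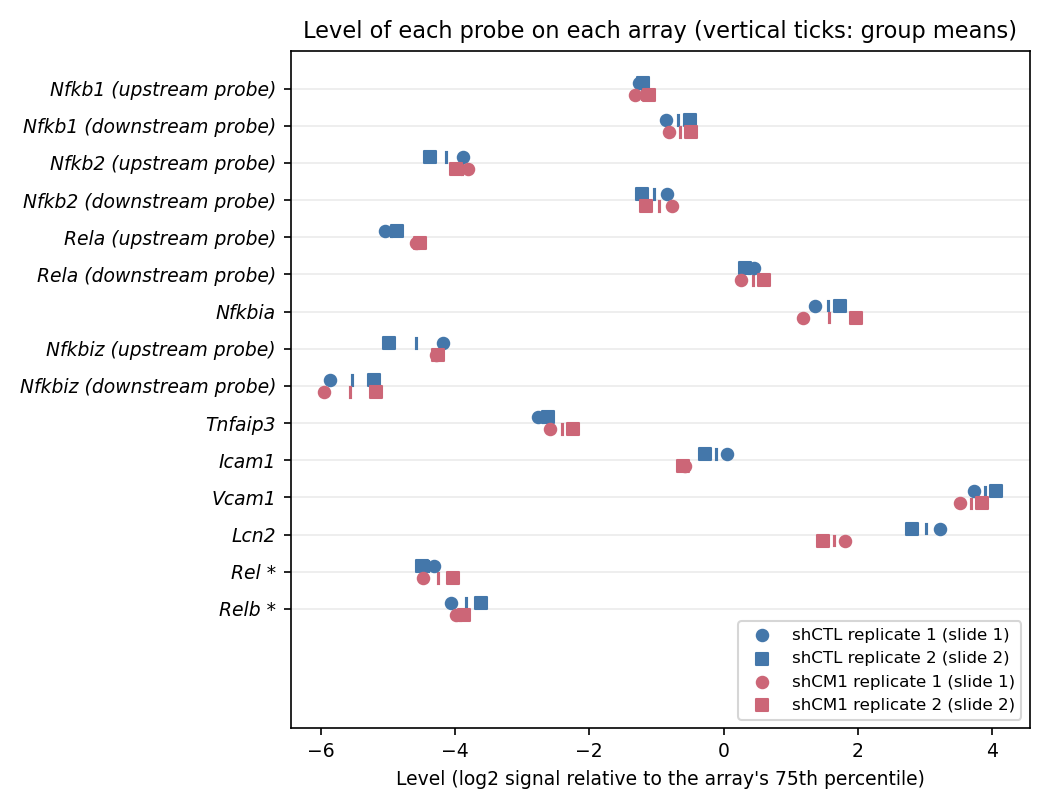
Level of each probe (horizontal axis, log2 signal relative to the 75th percentile of the array) on each of the 4 arrays; circles are replicate 1 (slide 1), squares replicate 2 (slide 2), vertical ticks group means, and an asterisk marks a gene known only from the probe's description. The shCM1 arrays at 1.82 and 1.49 lie below both shCTL arrays for Lcn2, while for Nfkb1 and Nfkbia the slides lie further apart than the groups; levels of different probes are not comparable with each other.

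Among the regulators, Nfkbia encodes IkB-alpha, the inhibitor that NF-kB itself induces. It had levels of 1.36 and 1.74 in shCTL replicates 1 and 2, and of 1.18 and 1.97 in shCM1 replicates 1 and 2. Slide 2 was the higher slide in both groups, by 0.58 on average, and the shCTL arrays lay between the shCM1 arrays. The slides went opposite ways, by -0.18 and 0.23, and their mean was 0.02 with a blocked 95% interval from -0.20 to 0.25. In percent of control, Nfkbia stood at 88.0% within slide 1 and 118% within slide 2.

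Nfkbiz encodes IkB-zeta, a nuclear IkB protein that NF-kB needs for a set of secondary targets, Lcn2 among them. Its probe at base 836 had levels of -4.17 and -4.98 in shCTL replicates 1 and 2, and of -4.29 and -4.25 in shCM1 replicates 1 and 2. Its probe at base 2260 had -5.86 and -5.21 in shCTL and -5.95 and -5.18 in shCM1. The low array at the first probe was shCTL replicate 2, and at the other probe both arrays of slide 1 were low. The differences were 0.31 (SE 0.23) and -0.03 (SE 0.30), with blocked limma adjusted p of 0.454 and 0.970. Signals ran from 23.9 to 39.0 units at the upstream probe and from 9.66 to 20.6 at the downstream one, and the differences depended on the scaling. The upstream one was 0.12 after normexp, 0.11 after quantile scaling and in the authors' table, and 0.08 after cyclic loess, and without shCTL replicate 2 it was -0.10. The downstream one lay between -0.30 and 0.02.

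Tnfaip3 encodes A20, a ubiquitin-editing enzyme that ends NF-kB signalling. Its probe, which the files do not place on the genome, had levels of -2.76 and -2.62 in shCTL replicates 1 and 2, and of -2.58 and -2.24 in shCM1 replicates 1 and 2. The shCM1 arrays were the higher ones and the groups did not overlap, though shCTL replicate 2 and shCM1 replicate 1 lay close together. Within slides the differences were 0.18 and 0.38, their mean was 0.28 (SE 0.14), and the blocked limma adjusted p was 0.237. The mean was 0.17 after normexp and 0.16 in the authors' table and after quantile scaling or cyclic loess. Without shCM1 replicate 2 it was 0.11, and without shCM1 replicate 1 it was 0.45.

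Lcn2 encodes lipocalin-2, an acute-phase protein that binds bacterial siderophores. Its signal was 6082 and 5291 units in shCTL replicates 1 and 2, and 2098 and 2085 units in shCM1 replicates 1 and 2. As levels these were 3.22 and 2.81 in shCTL and 1.82 and 1.49 in shCM1. Both shCM1 arrays lay below both shCTL arrays, and the gap between the nearest arrays was wider than the gap within either group. Within slides Lcn2 stood at 37.7% and 40.0% of control. The difference was -1.36 (SE 0.09, 95% interval -1.55 to -1.18, blocked limma adjusted p = 5.36e-07; lower in 2 of 2 slides), and it was the 19th lowest of the 36700. Lcn2 was called with the block under all 4 other scalings and value sources, with adjusted p from 6.62e-06 to 0.000255, and without the filter on dim probes, at 0.0035. It was not called with the block when the prior had no intensity trend (adjusted p = 0.242), nor in the fit without a block (SE 0.21, adjusted p = 1.0). Leaving out 1 array in turn gave differences from -1.57 to -1.16. In these bulk cultures, fewer cells of a type that makes Lcn2 and less Lcn2 RNA per cell cannot be told apart.

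Icam1 encodes the ligand of leukocyte integrins. It was read from 10 spots on each array, 9 on shCM1 replicate 1, where 1 spot carried an outlier mark and was left out. It had levels of 0.06 and -0.27 in shCTL replicates 1 and 2, and of -0.58 and -0.60 in shCM1 replicates 1 and 2. The shCM1 arrays were alike and lay below both shCTL arrays, which differed from each other about as much as shCTL replicate 2 differed from the shCM1 arrays. Within slides the differences were -0.63 and -0.33, or 64.6% and 79.7% of control. The mean was -0.48 (SE 0.11, 95% interval -0.72 to -0.24, blocked limma adjusted p = 0.0208; lower in 2 of 2 slides). Without shCTL replicate 1 it was -0.31, and without shCTL replicate 2 it was -0.64. The call was lost with the block after cyclic loess (adjusted p = 0.0505), without the filter on dim probes (0.110) and without an intensity trend (0.25). It held with adjusted p of 0.0264, 0.0350 and 0.0390 after quantile scaling, after normexp and in the authors' value table.

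The repeated Icam1 spots show how much of the gap lies outside the error of the array. On shCTL replicate 2 the 10 spots ran from -0.35 to -0.20, and on the shCM1 arrays they ran from -0.66 to -0.53 and from -0.70 to -0.55. No shCM1 spot reached the lowest shCTL spot. The SD of spots was 0.043 to 0.051, below the slide-to-slide spread of the shCTL group (SD 0.23, n = 2). In the shCM1 group that spread was smaller (SD 0.019, n = 2) and lay below the SD of spots. Spots of 1 array share its RNA and labelling, so they are not replicates of the cultures.

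**Figure D2:**
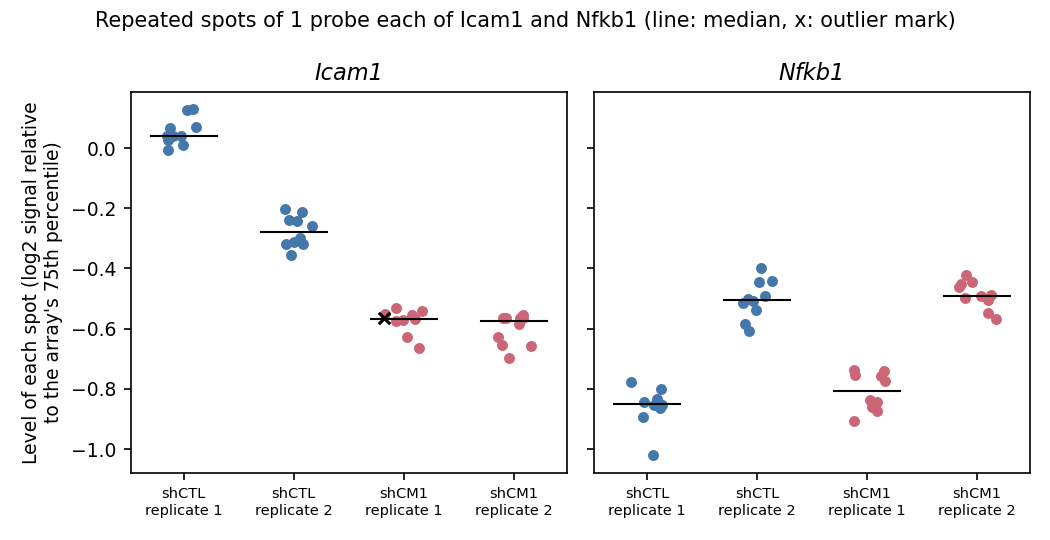
Level of every spot (vertical axis, log2 signal relative to the 75th percentile of the array) of the Icam1 probe and of the downstream Nfkb1 probe on each array; horizontal lines are medians and the cross is a spot with an outlier mark, left out of the values. For Icam1 both shCM1 arrays lie near their medians of -0.57, below both shCTL arrays, while for Nfkb1 each shCM1 array lies beside the shCTL array of the same slide.

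Vcam1 encodes another integrin ligand of activated endothelium and astrocytes. It had levels of 3.74 and 4.06 in shCTL replicates 1 and 2, and of 3.52 and 3.85 in shCM1 replicates 1 and 2, signals of 6821 to 12580 units. Within each slide the shCM1 array was lower, by 0.22 and 0.21, but slide 2 was the higher slide by 0.33 and the groups overlapped. The difference was -0.21 (SE 0.08, 95% interval -0.39 to -0.04) with a blocked limma adjusted p of 0.132. It was -0.12 after quantile scaling (unadjusted blocked limma p = 0.156) and in the authors' table (p = 0.144), and -0.15 after cyclic loess (p = 0.0878), so under those scalings the 95% interval includes 0, as it does without an intensity trend (p = 0.122). After normexp it was -0.24 (blocked limma adjusted p = 0.111). Without shCTL replicate 2 the difference was -0.05, without shCM1 replicate 1 also -0.05, and without either of the other arrays -0.38.

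**Figure D3:**
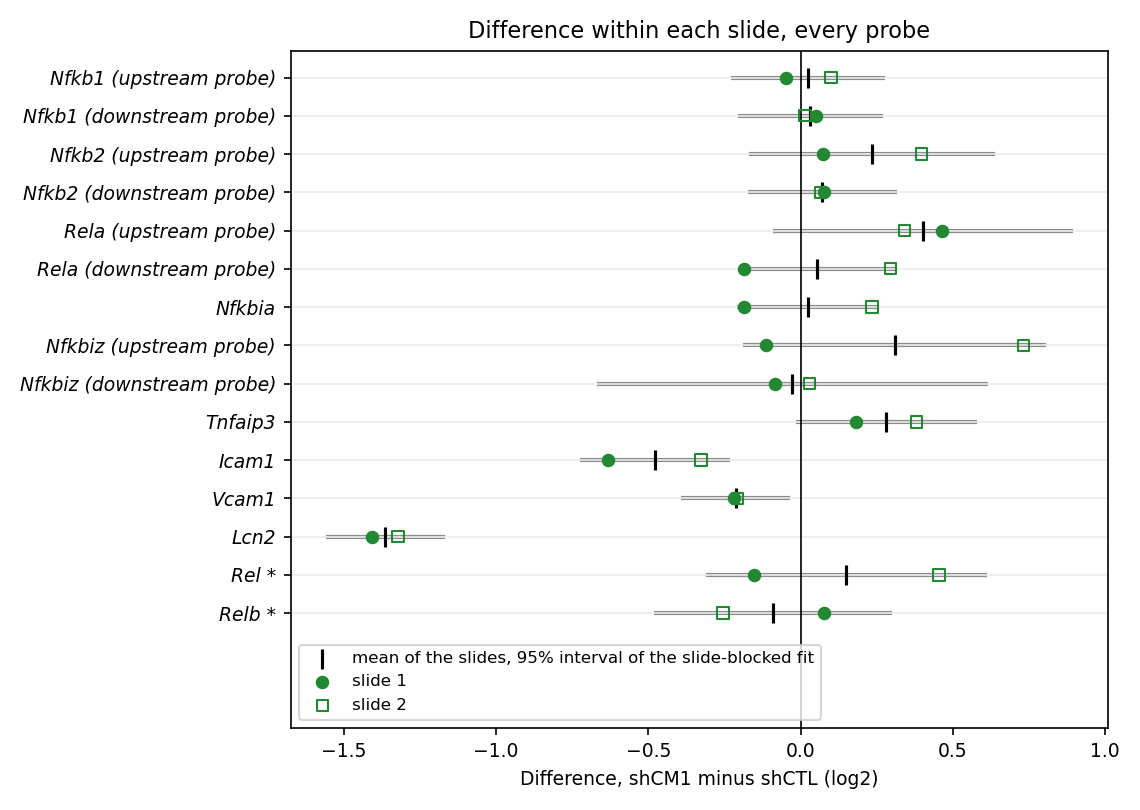
Difference of shCM1 minus shCTL (horizontal axis, log2) within slide 1 (filled circles) and slide 2 (open squares) for every probe; black ticks are their mean and grey bars the 95% interval of the limma fit with the slide as a block. Lcn2 at -1.36, Icam1 at -0.48 and Vcam1 at -0.21 have intervals that leave out 0 on this scaling. For Vcam1 that does not hold after quantile scaling, cyclic loess or in the authors' table. Lcn2 and Icam1 passed the adjustment over all probes. The open squares and filled circles of upstream Nfkb1, downstream Rela, Nfkbia, Nfkbiz, Rel and Relb lie on opposite sides of 0.

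Over the 13 member probes, the gap between slides was larger than the gap between groups at 9, against 62.6% of all probes. The direction was lower within both slides at 3 probes, those of Lcn2, Icam1 and Vcam1, higher within both at 5, and opposite at 5, against 33.2% of all probes with opposite directions. The groups did not overlap at 4 of the 13, with shCM1 lower for Lcn2 and Icam1 and higher for Tnfaip3 and upstream Rela. Over all probes that held for 31.8%, of which 3677 were lower and 7987 higher in shCM1. The median difference of the member probes was 0.03, beside 0.08 over all probes. That general shift was 0.06 after normexp, and 0.01 in the authors' table and after quantile scaling or cyclic loess. The split of all calls also moved with the scaling, from 54.3% higher with the block to 44.7% after normexp, 40.3% after quantile scaling, 38.7% in the authors' table and 38.0% after cyclic loess.

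Other genes of the pathway were described from 7 lists drawn up with earlier results of these data known, each gene by its brightest probe. In all, 97 listed genes were tested and 10 had no kept probe, and with the slide as a block 6 were higher and 5 lower, which is 11.3%. In the blocked fit on the brightest probe of every name, 6.70% of 30156 names were called, and 11 of the listed genes. Those names include ones kept from the files that matched no RefSeq gene. With lists chosen in that way, the gap between these shares is a description only. Their median difference was 0.07. Without a block limma called 0 of them. None of the 6 other Rel and IkB genes tested and none of the 10 genes of the IKK complex and its upstream kinases was called. In those lists Bcl3, a nuclear IkB protein, had -0.32 (blocked limma adjusted p = 0.254) and Tbk1, an IKK-related kinase, had 0.30 (adjusted p = 0.209, and -0.02 at its other probe). Nfkbib, the gene of IkB-beta, had -0.20 (adjusted p = 0.288) and Map3k7, the kinase TAK1, had 0.20 (adjusted p = 0.277).

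Of 18 adaptors and ubiquitin ligases tested, only Traf1 was called with the block. Traf1 is an adaptor of TNF receptors and a known NF-kB target. Its signal was 64.8 and 90.5 units in shCTL replicates 1 and 2, and 37.5 and 54.3 units in shCM1 replicates 1 and 2. It fell by 0.69 on the log2 scale (blocked limma adjusted p = 0.0208), with groups that did not overlap. After normexp it had -0.31 and was not called (adjusted p = 0.0773).

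Of 10 feedback regulators beside A20, Tollip, an inhibitor of IL-1 and Toll-like receptor signalling, was called lower at its brightest probe. It had 6666 and 7121 units in shCTL replicates 1 and 2, and 4853 and 4902 units in shCM1 replicates 1 and 2. The difference was -0.42 (blocked limma adjusted p = 0.00982) and -0.06 at its other probe, so its probes disagreed. It was not called after cyclic loess (adjusted p = 0.0539), and without shCM1 replicate 2 it was -0.27.

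Of 13 receptors and ligands tested, Tnfrsf1b, the gene of TNF receptor 2, was called higher. It had 29.95 and 23.97 units in shCTL replicates 1 and 2, and 46.7 and 50.8 units in shCM1 replicates 1 and 2. The difference was 0.94 (blocked limma adjusted p = 0.0114), and the groups did not overlap. It was not called with the block under any of the 4 other scalings, with adjusted p from 0.0515 to 0.0933, and it was 0.31 after normexp.

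Among 20 other acute-phase genes, 3 were called higher and 1 lower, and their median difference was 0.39, or 0.18 after normexp. Complement C3 had levels of -0.02 and 0.85 in shCTL replicates 1 and 2, and of -0.66 and -0.54 in shCM1 replicates 1 and 2. C3 fell by 1.02 on the log2 scale (blocked limma adjusted p = 0.000474), by 0.64 within slide 1 and by 1.39 within slide 2. Without shCTL replicate 2, the high array, it had -0.58. A2m, the protease inhibitor alpha-2-macroglobulin, went the other way, with 1.49 and 1.06 in shCTL and 2.22 and 1.80 in shCM1. A2m rose by 0.74 (blocked limma adjusted p = 0.000179), by nearly the same amount in both slides. Saa4, a constitutive serum amyloid A protein, had 0.55 (adjusted p = 0.0275) and Steap4, a metalloreductase, had 0.47 (adjusted p = 0.0434). Both were called with the block but under none of the 4 other scalings, their other probes had 0.23 and -0.23, and without shCTL replicate 1 Steap4 had 0.26.

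Among 20 other classical NF-kB targets, 2 were called higher and 2 lower, and the median difference was 0.24, or between 0.03 and 0.09 under the other scalings. The chemokine Ccl20 had levels of 1.00 and 1.80 in shCTL replicates 1 and 2, and of -0.48 and -0.17 in shCM1 replicates 1 and 2. Ccl20 stood at 30.2% of control (difference -1.73, blocked limma adjusted p = 6.46e-07). The chemokine Ccl2 had -1.72 and -0.84 in shCTL and -2.56 and -2.46 in shCM1, a difference of -1.23 (adjusted p = 0.000211). In both chemokines shCTL replicate 2 was the high array; without it Ccl2 had -0.79 and Ccl20 had -1.33. Junb, an AP-1 subunit, had 0.75 (blocked limma adjusted p = 0.00899), was 0.41 without shCTL replicate 2, and lost its call in the authors' table (adjusted p = 0.0602) and after cyclic loess (0.0782). Cx3cl1, the neuronal chemokine fractalkine, had 0.28 (blocked limma adjusted p = 0.0320, 0.36 at its other probe), was 0.19 without shCTL replicate 2, and lost its call after normexp (0.052). C3, A2m, Ccl2 and Ccl20 were called with the block under all 4 other scalings.

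**Figure D4:**
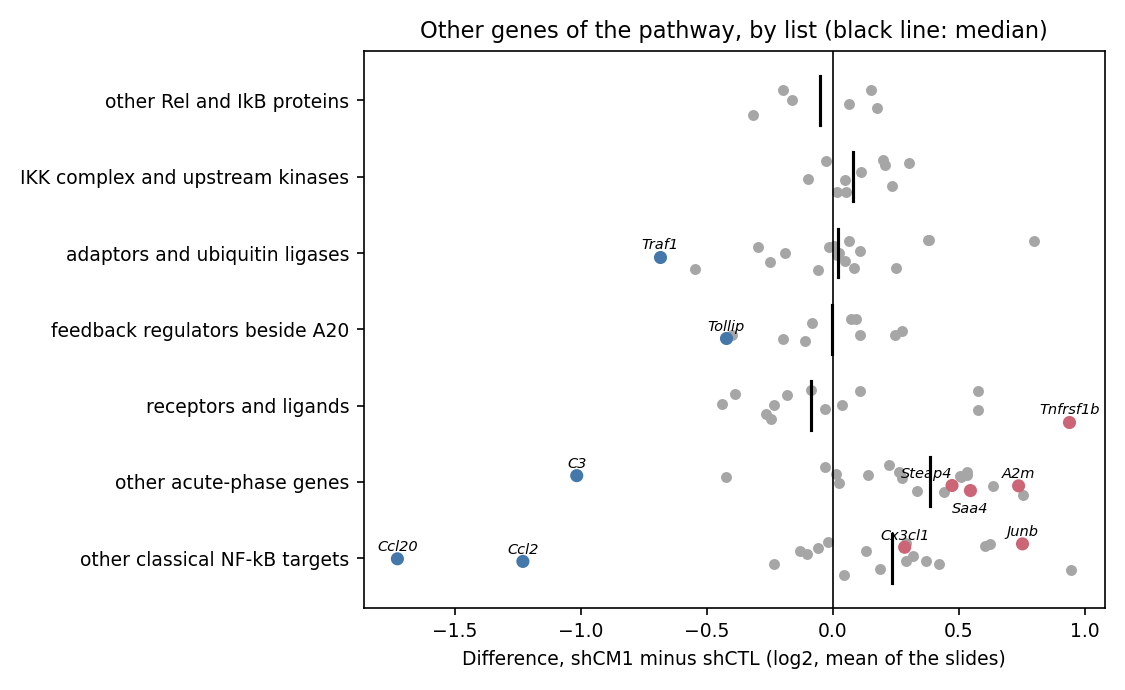
Difference of shCM1 minus shCTL (horizontal axis, log2, mean of the slides) for each tested gene of 7 lists of other NF-kB pathway genes; coloured, named points passed limma with the slide as a block (blue lower, red higher), grey points did not, and black lines are list medians. The lists of Rel and IkB genes and of IKK genes hold no coloured point, while the acute-phase genes and classical targets hold coloured points on both sides of 0, from Ccl20 at -1.73 to Junb at 0.75.

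Some markers of other cell types differed between the groups and are given beside these results. Over all probes, 3.20% were called higher and 2.69% lower with the block, and the median difference was 0.08. Of 7 microglial genes tested, all 7 were higher within both slides and 3, Tyrobp, Aif1 and Cd68, were called higher with the block. The median difference of the 7 was 0.67, and 0.28 after normexp. Their summed level, in units of each array's 75th percentile, was 0.95 and 1.07 in shCTL and 1.79 and 1.57 in shCM1. Bright probes weigh most in such a sum. Cx3cr1 was not well above background on all arrays, and no Itgam probe passed the filter. Of 7 endothelial genes, 1 was called higher, Slco1c1, and 4 were higher and 0 lower within both slides. Pecam1 was not well above background on all arrays. The median difference of the 7 was 0.22, and 0.09 after normexp. The summed level was 4.43 and 4.44 in shCTL and 7.37 and 6.64 in shCM1. Of 7 pericyte and fibroblast genes, Dcn, Col1a2 and Pdgfrb were called higher, and 5 were higher and 1 lower within both slides. Lum was not well above background on all arrays, and Acta2 was not tested. The median difference of the 7 was 0.54, and 0.18 after normexp. The summed level was 1.74 and 1.96 in shCTL and 2.06 and 2.56 in shCM1.

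Of the 8 astrocyte genes none was called, and their summed level was 110.5 and 115.9 in shCTL and 120.0 and 116.2 in shCM1. The 7 neutrophil genes tested had none called either, with 0.18 and 0.22 in shCTL and 0.27 and 0.23 in shCM1. Of these 7, 4 were higher and 0 lower within both slides, and their median difference was 0.38, or 0.15 after normexp. S100a9 and Ngp were not well above background on all arrays, and Mmp8 was not tested. Of the 8 neuronal genes Gad1 was called higher and Tubb3 lower, and the summed level was 275.6 and 208.9 in shCTL and 257.7 and 189.3 in shCM1. Within both slides 5 of the neuronal genes were lower and 1 higher, and their median difference was -0.05. The 8 genes of the oligodendrocyte lineage had 2 called higher and 1 lower, with 50.4 and 58.6 in shCTL and 45.2 and 57.3 in shCM1. The part of these cell types in the differences of Lcn2, Icam1 and the other genes named above was not tested.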

How the data were processed

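Single-colour Agilent arrays measured gene expression in 2 shCTL and 2 shCM1 cultures. Per the file headers, the deposited intensity values were extracted with Agilent Feature Extraction 10.7.3.1; the processed signal, already background-corrected by that software, is linear and was used here. The authors' deposited value table also holds linear intensity values, by a step not given in the sources used here; its columns follow their arrays at a correlation of 0.9998 or above on the log2 scale. There were 43379 gene spots among 45018 per array; 86 to 98 with an outlier mark were left out and 0 were saturated. The number of arrays limits the precision.

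Repeated spots were averaged before log2, and each log2 value was set against its array's 75th percentile over gene probes. A probe was kept if 2 or more of the 4 arrays had it well above background. The comparison used limma 3.58.1 under R 4.3.3 (lmFit, eBayes with an intensity trend, two-sided), adjusted by Benjamini-Hochberg over all 36700 probes at a threshold of 0.05, without and with the slide as a block. Arrays with the same number deviated together (correlation 0.713 of their deviations); the slide comes from the file headers. An exact permutation test of 2 against 2 cannot go below 0.33. The labels do not name separate animals or pools, so p-values speak for these arrays only. In the blocked fit they rest mostly on the spread of probes of similar brightness. The fits were also run on simulated data, which checks the code and not the calls made here.

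Probes matched a RefSeq gene table of GRCr8 by accession (18971), symbol (2995), older symbol (203) or description (1152); 17691 kept the file's name. A gene outside the members was read by its brightest probe. Named genes were all members by every probe, Cmtr1, and of each other list the genes passing the blocked fit, at most 4 by smallest p, or else the 2 with the smallest p. The members and lists were chosen with earlier results of these data known. Listed genes without a kept probe were Ikbke, Map3k8, Tnip3, Irak3, Tnf, Tnfsf11 and Selp, and Tirap, Tnfrsf11a and Cxcl16 were not analysed here. Alternatives were normexp background (offset 50), quantile scaling, cyclic loess, the authors' table, other filters, no intensity trend, the brightest probe per gene, and each array left out.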

Additional observations from a re-analysis of the deposited data

How the results depend on the processing

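With the slide as a replicate block, the calls over all probes, over the member probes and over the other pathway genes were 2164, 2 and 11, against 0 in each without it. With the block and normexp they were 1422, 2 and 6; with quantile scaling 1353, 2 and 8; with cyclic loess 972, 1 and 6; with the authors' values 1108, 2 and 7; without a filter 355, 1 and 3; with only probes well above background on all arrays 2135, 2 and 11; and with the brightest probe per gene 2020, 2 and 11. The block without an intensity trend, and every alternative without the block, gave 0 in each. The cause of these shifts was not tested.

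Differences with no call changed sign as follows. The upstream Nfkb1 probe had -0.0216 after normexp, -0.0366 after quantile scaling, -0.0342 in the authors' table and -0.0316 after cyclic loess, with and without the block. The downstream Nfkb1 probe had -0.00165 after quantile scaling, -0.000462 in the authors' table and -0.000125 after cyclic loess. The downstream Nfkbiz probe had 0.019 after normexp. Leaving out 1 array in turn, where the lone array is assumed to vary like the other group, gave -0.0797 to 0.13 for upstream Nfkb1, -0.145 to 0.21 for downstream Nfkb1, -0.00872 to 0.48 for upstream Nfkb2, -0.121 to 0.264 for downstream Nfkb2, -0.12 to 0.23 for downstream Rela, -0.37 to 0.42 for Nfkbia, -0.0954 to 0.714 for upstream Nfkbiz and -0.413 to 0.359 for downstream Nfkbiz. Lcn2, Icam1, Vcam1, Tnfaip3 and upstream Rela kept their direction under every alternative run.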
